A study of Homo sapiens with 6 samples.

Results

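The genes described here are 33 genes of glycolysis and of the response to low oxygen: glucose transporters, glycolytic enzymes, the enzymes that set fructose 2,6-bisphosphate, the branch from pyruvate to lactate, and HIF1A with genes it is known to induce. The list was chosen with earlier results of these data known, so its counts beside the shares of all genes are not an independent check. Its genes were taken by symbol from the 27576 Ensembl genes of the deposited table, and all 33 were found. Of these, 32 passed the filter on low values (1 or more in 3 or more libraries) and were tested. The exception was EGLN3, a prolyl hydroxylase gene, which had 2 reads in control replicate 2 and 0 reads in the other 5 libraries, so that both groups lie at or under the floor of 3 reads per library.

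The libraries come from Kasumi-1, a human line of acute myeloid leukaemia in which RUNX1 and RUNX1T1 are fused. The control group (3 libraries) received 0.5% BSA and the IL-10 group (3 libraries) received recombinant human interleukin-10 (rhIL10) at 10 ng/ml, each for 72 h in RPMI1640 medium with 20% FBS. Titles number the libraries 1 to 3 within each group. The labels do not say whether a number marks a culture or a day, or whether replicates were separate cultures. The spread that p-values rest on is therefore the one between these libraries, which may be technical, and all 6 come from 1 line.

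Glycolysis splits glucose into pyruvate in a chain of enzymes, and lactate dehydrogenase turns pyruvate into lactate where oxygen is short or flux is high. The transcription factor HIF1A is hydroxylated by EGLN enzymes and destroyed when oxygen is present. When oxygen falls it is stable, pairs with ARNT and binds short motifs (hypoxia response elements) near genes for glucose uptake, glycolysis, mitophagy, collagen modification and blood vessel growth. Leukaemia cells are known for high glycolytic flux. HIF1A is controlled mainly as a protein, so its transcript level does not report its activity.

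Recovered depth was 20750115 to 24222897 reads per library. Values are reads scaled by a single factor for each library, here called normalised reads. Libraries that share a number resembled each other across genes, and the IL-10 and control libraries numbered 2 differed in step with the GC content of the transcripts (Spearman rho = 0.842 across 11575 genes). The myeloid markers RUNX1T1, KIT, CD34, MPO, PTPRC, CD33, SPI1, CEBPA, AZU1 and ELANE were all above 3 reads in every library. Of 14 liver genes other than SERPINA1, 12 had more than 3 reads in each of the replicate 2 libraries, with summed values of 1289 in control and 611 with IL-10. In the other 4 libraries the sum was 15.0 to 29.4, and ALB, APOB and AFP were at or near 0 there. Airway epithelial genes summed to 273 to 339 in control and 176 to 203 with IL-10.

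IL-10 left no member of the list past the threshold, and the 3 control and 3 IL-10 libraries overlapped in all 32 tested members. Over the 21946 genes tested limma called 0 (0%) at an adjusted p under 0.05, with 344 genes and none of the 32 members at an unadjusted p under 0.05. edgeR called 0 genes (380 unadjusted) and DESeq2 0 (90 unadjusted). Groups that did not overlap were 5.87% of all genes and 0 of the 32 members. For 18 members, described below, the libraries were ordered by number whatever the treatment. Their groups overlap by that order alone, whatever IL-10 did within a number. The median log2 fold change, on the log2(value + 1) scale used throughout, was 0.12 for the members, with 20 of 32 positive, and 0.02 for all genes. The members' median was 0.02 (16 positive) with equal library totals, when that of all genes was -0.08, 0.01 (18 positive) with quantile normalization, 0.04 (21 positive) with a correction for GC content and length and 0.05 (27 positive) with sample weights. As deposited it was -0.03 in the libraries numbered 1, 0.37 in those numbered 2 and 0.02 in those numbered 3. The median was 0.27 when IL-10 replicate 2 was left out, -0.17 for control replicate 2, 0.37 for control replicate 3 and -0.15 for IL-10 replicate 3, and no member was called in any of these fits.

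In 18 of the 32 members both libraries numbered 3 lay above both numbered 1, and both numbered 1 lay above both numbered 2, whichever treatment they had received. This order was found in 7.52% of all genes tested. The 18 were SLC2A3, HK2, ALDOC, PFKFB3, PFKFB4, PGK1, ENO2, LDHA, PDK1, HIF1A, KDM3A, P4HA1, ANKRD37, BNIP3, BNIP3L, VEGFA, ADM and NDRG1. They were also the 18 members, against 17.5% of all genes, in which both libraries numbered 2 were the lowest of the 6, and are called graded here. The other 14 tested members, GAPDH, ENO1, ALDOA and PKM among them, did not have this order. In all of these except LDHB and PFKM the control libraries alone had it. IL-10 replicate 2 then broke it by lying above IL-10 replicate 1. The transcripts of these genes had 52.8% to 63.5% GC, and the libraries numbered 2 differed in step with GC. Graded genes of similar GC included NDRG1 (58.0%) and ADM (58.5%). How far the split into graded and other genes follows GC was not tested. The 33 genes together held 1.77%, 1.28% and 2.27% of normalised reads in control replicates 1, 2 and 3 and 1.74%, 1.56% and 2.32% in the IL-10 replicates. In bulk RNA, a smaller share of cells with a transcript and less of it per cell cannot be told apart.

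**Figure D1:**
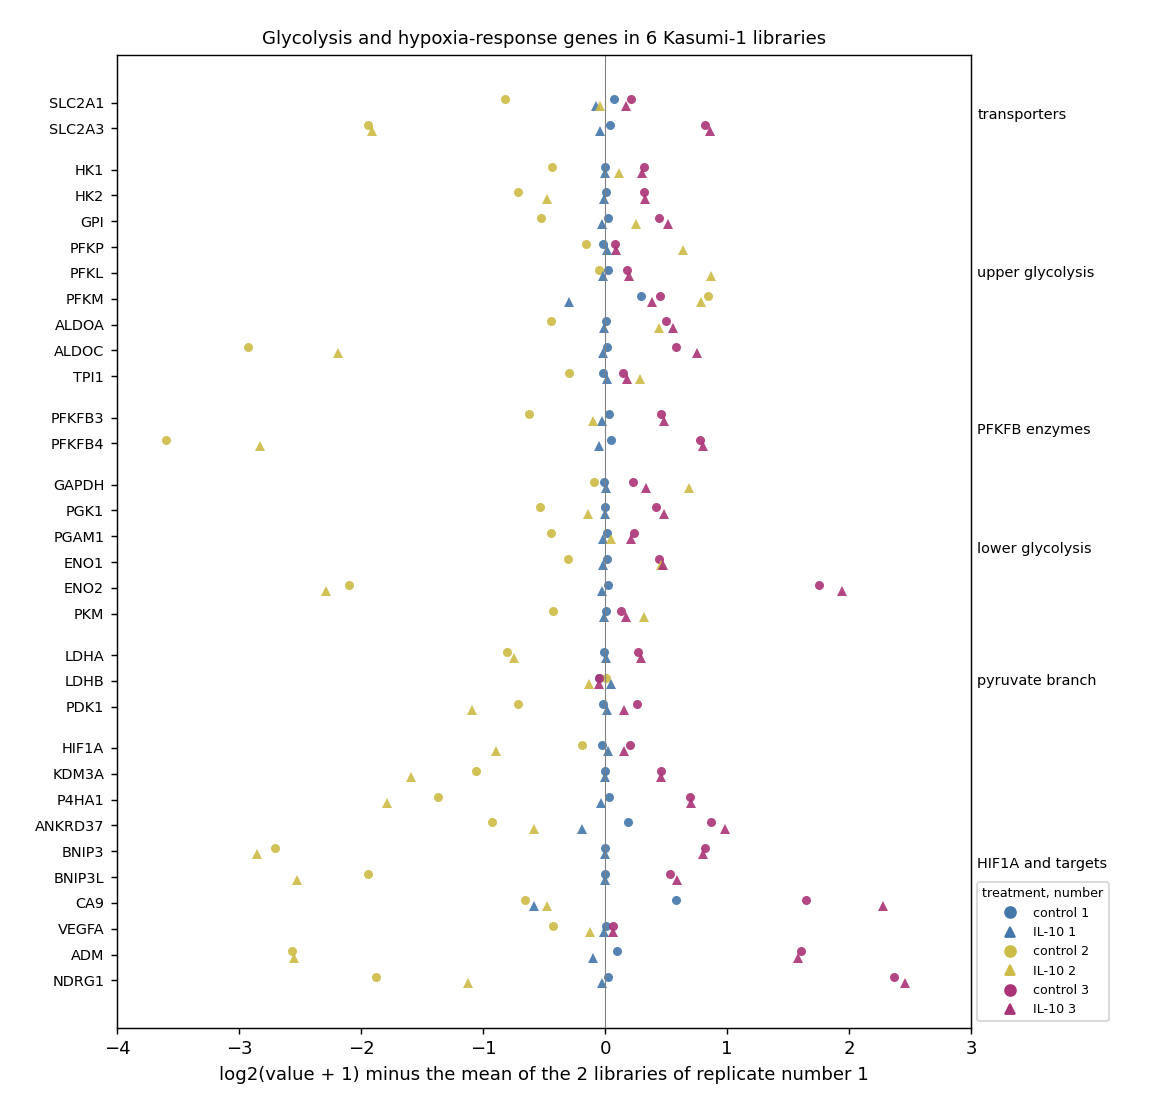
Level of the 32 tested members in each of the 6 libraries, as log2(value + 1) minus the mean of the 2 libraries numbered 1, grouped by role. Circles are control and triangles IL-10, and colours give the replicate number: the libraries numbered 3 lie to the right in every gene except LDHB, those numbered 2 lie far to the left in genes such as PFKFB4, ALDOC and BNIP3, and the circle and triangle of numbers 1 and 3 nearly coincide for most genes.

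The difference between numbers was tested in the 4 libraries numbered 1 and 3, with treatment as a covariate in limma. Number 2 was left out because its IL-10 library was already known to stand apart. Of the 32 members 28 were higher in replicate 3 at an adjusted p under 0.05, where 6.45% of all genes were, and 0 were lower, where 8.36% of all genes were. With equal library totals in place of the deposited scaling, all genes split into 1728 higher and 1347 lower in replicate 3, against 1415 and 1834 as deposited. With a stricter filter, a value of at least 10, 1458 of 15024 genes were higher and 1997 lower. Of the members 27 of 31 were higher in that fit. All genes tested include many of lower value, so their shares are not matched to the members for level. Beside the 28, the 4 members that did not pass as deposited were LDHB, VEGFA, PFKP and PFKM. The median log2 difference was 0.45 for the members and -0.01 for all genes. It was 0.42 between the control libraries alone and 0.49 between the IL-10 libraries alone, which share no library. Over 30 members with a mean of at least 50 the differences in the 2 treatments followed each other (Pearson r = 0.984, Spearman rho = 0.963, across genes, which are not replicates, with both axes sharing the numbers), against 0.668 and 0.607 over 11575 genes. The fit has 1 residual degree of freedom and limma took each gene's spread wholly from the trend over all genes. The spread is also only that between libraries of 1 number, which may share a culture. When 1 of the 4 libraries was left out, without the covariate, 0 to 3 genes and 0 to 1 members passed (0 without replicate 1 of either group, 1 without replicate 3 of either), while 31 of 32 members stayed positive each time, with medians of 0.44 to 0.47.

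**Figure D2:**
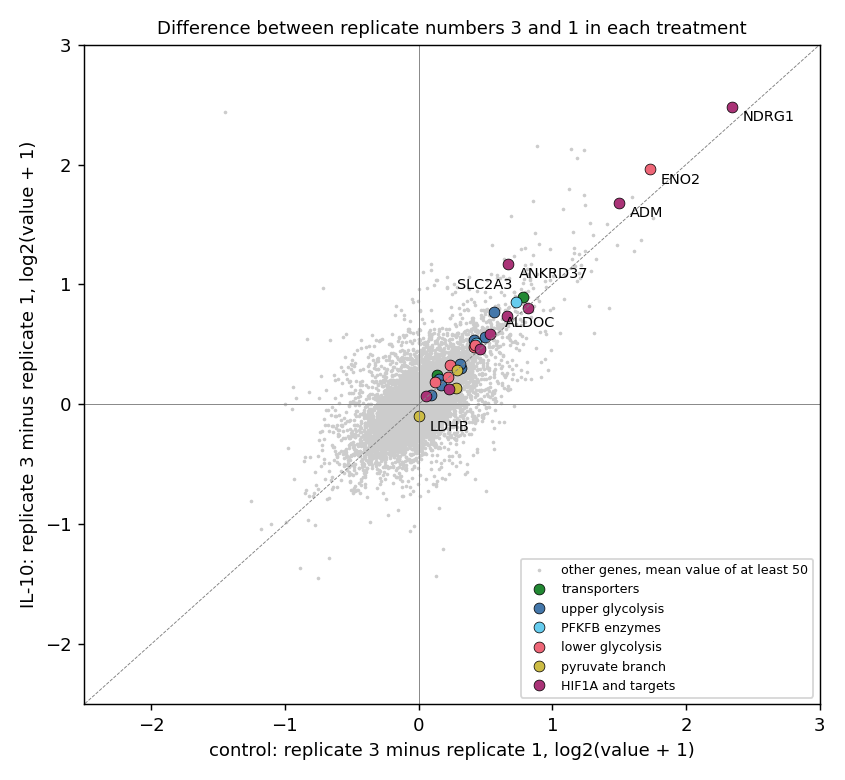
Difference in log2(value + 1) between the libraries numbered 3 and 1, in control (horizontal) and with IL-10 (vertical), for 30 members coloured by role and for other genes with a mean value of at least 50 (grey); the dashed line marks equal differences. NDRG1, ENO2 and ADM lie farthest out along the line, and LDHB lies next to the origin.

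Over all 3 numbers, an F test in limma with treatment as a covariate called 10 of the 32 members, against 0.697% of all genes (153). They were SLC2A3, ALDOC, PFKFB4, ENO2, KDM3A, P4HA1, BNIP3, BNIP3L, ADM and NDRG1. When IL-10 replicate 2 was left out, 30 of 32 members were called, against 29.9% of all genes, and the 2 that were not were LDHB and PFKM. Without control replicate 2 it was 31 members and 10421 genes. In both of these fits number 2 is a single library, assumed to vary like the others, and the spread comes only from the close pairs numbered 1 and 3, so the higher counts are no added support. Without 1 of the other 4 libraries 281 to 804 genes were called, also with 1 number left as a single library. With all 6 libraries corrected for GC content and transcript length, 27 of 32 members were called, against 17.5% of all genes.

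Promoter sequences are shown for 8 members: 7 of the graded genes, and LDHB as the enzyme of the same step that did not follow them. The 8 were picked by name, so they do not stand for the graded or the other genes as a set. Of the 33 members 29 had at least 1 window in the RefSeq promoter table (GRCh38.p14), 53 windows in all. BNIP3L, NDRG1, SLC2A3 and VEGFA had none. Each line gives the 250 bases before the first listed start, 5′ to 3′ on the gene's strand, with matches to 2 core motifs of HIF binding in capitals. The A form is ACGTG. The second, called the G form because only its first base differs, is GCGTG. Both were searched on either strand, where overlapping matches make a longer run of capitals.
LDHA: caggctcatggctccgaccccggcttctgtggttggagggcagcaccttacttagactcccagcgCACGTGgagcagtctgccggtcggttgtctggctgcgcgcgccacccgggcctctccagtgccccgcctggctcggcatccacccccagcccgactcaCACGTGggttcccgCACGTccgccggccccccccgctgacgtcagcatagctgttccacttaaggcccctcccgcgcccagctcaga
LDHB: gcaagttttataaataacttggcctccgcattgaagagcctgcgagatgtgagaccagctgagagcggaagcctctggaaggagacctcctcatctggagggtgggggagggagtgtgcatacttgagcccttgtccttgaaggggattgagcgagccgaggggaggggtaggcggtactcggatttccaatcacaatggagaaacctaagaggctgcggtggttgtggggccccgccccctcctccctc
ALDOC: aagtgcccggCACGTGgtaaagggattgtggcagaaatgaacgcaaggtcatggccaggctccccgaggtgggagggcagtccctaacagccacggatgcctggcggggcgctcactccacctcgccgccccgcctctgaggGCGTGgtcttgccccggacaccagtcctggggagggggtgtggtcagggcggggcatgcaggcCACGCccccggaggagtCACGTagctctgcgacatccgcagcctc
ENO2: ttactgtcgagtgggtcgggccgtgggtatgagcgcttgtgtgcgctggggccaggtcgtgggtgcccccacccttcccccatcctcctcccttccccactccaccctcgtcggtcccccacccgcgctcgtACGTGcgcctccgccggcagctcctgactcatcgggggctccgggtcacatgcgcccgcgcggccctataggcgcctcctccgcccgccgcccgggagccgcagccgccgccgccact
BNIP3: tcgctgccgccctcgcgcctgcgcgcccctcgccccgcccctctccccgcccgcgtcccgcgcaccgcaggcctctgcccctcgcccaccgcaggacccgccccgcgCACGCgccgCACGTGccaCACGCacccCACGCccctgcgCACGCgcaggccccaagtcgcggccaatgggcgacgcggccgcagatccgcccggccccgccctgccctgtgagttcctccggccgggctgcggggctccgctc
ANKRD37: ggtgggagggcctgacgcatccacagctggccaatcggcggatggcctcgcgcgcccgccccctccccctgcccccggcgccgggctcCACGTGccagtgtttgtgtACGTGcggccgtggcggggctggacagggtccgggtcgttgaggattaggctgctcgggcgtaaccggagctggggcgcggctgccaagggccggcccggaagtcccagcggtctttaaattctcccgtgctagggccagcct
PGK1: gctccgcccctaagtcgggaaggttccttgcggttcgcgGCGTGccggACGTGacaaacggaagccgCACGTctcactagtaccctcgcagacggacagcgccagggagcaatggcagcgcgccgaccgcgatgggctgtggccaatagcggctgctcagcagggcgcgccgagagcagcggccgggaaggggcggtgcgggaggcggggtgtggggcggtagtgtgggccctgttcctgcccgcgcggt
PFKFB4: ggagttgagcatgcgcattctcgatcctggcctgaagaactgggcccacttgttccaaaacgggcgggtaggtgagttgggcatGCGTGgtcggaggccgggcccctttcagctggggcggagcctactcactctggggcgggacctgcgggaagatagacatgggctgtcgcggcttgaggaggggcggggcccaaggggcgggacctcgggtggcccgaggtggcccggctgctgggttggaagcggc

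These stretches lie at chr11:18394313-18394562 (plus strand), chr12:21657843-21658092 (minus), chr17:28576896-28577145 (minus), chr12:6914330-6914579 (plus), chr10:131981924-131982173 (minus), chr4:185396591-185396840 (plus), chrX:78103998-78104247 (plus) and chr3:48556804-48557053 (minus). Positions count from the start, negative before it. LDHA has the A form on both strands at -185 and at -87 and a further one at -73. That is 1 of its 2 windows, and the window not shown has the G form but no A form. LDHB has neither motif in the 250 bases, and its 1 match, to the G form, lies 28 bases after the start. BNIP3 has the A form on both strands at -134 among 4 matches to the G form from -143 to -104. PFKFB4, among the most graded genes, has a single G form at -166 and no A form. The A form was also absent from the windows of the graded genes ADM, HIF1A and KDM3A. It was present in a window of ALDOA, CA9, GAPDH, GPI, PFKM, PFKP and TPI1, which were not graded. The A form was present in 21 of the 53 member windows (39.6%) and in 21.4% of all 35116 windows, and either motif in 67.9% and 48.4%. The member windows were also richer in GC, with a median of 68.7% against 58.7%. A match describes letters only, and no binding was measured.

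The glucose transporters SLC2A1 (GLUT1) and SLC2A3 (GLUT3) carry glucose into the cell. Values in this and the following paragraphs are normalised reads, listed for replicates 1, 2 and 3 in that order. SLC2A3 (ENSG00000059804, chromosome 12, 7919230 to 7936275) stood at 3488, 882 and 5993 in the control libraries and 3305, 900.3 and 6164 in the IL-10 libraries. Both libraries numbered 2 were low and both numbered 3 high, and the treatments interleaved. Replicate 3 exceeded replicate 1 by 1.72-fold in control and 1.87-fold with IL-10, a log2 difference of 0.84 ± 0.04 SE. SLC2A1 stood at 2691, 1447 and 2961 in the control libraries and 2437, 2493 and 2885 in the IL-10 libraries. Only control replicate 2 was low there, and the log2 difference between numbers 3 and 1 was 0.19 ± 0.05 SE (limma adjusted p = 0.0013).

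All 9 genes of upper glycolysis had a positive log2 difference between numbers 3 and 1. Of these, 7 passed the threshold as higher in replicate 3, where 6.45% of all genes did. HK2, the inducible hexokinase that traps glucose as its phosphate, stood at 10346, 6278 and 12859 in the control libraries and 10217, 7378 and 12927 in the IL-10 libraries. HK1, the more widely expressed hexokinase, stood at 5254, 3886 and 6556 in the control libraries and 5234, 5669 and 6462 in the IL-10 libraries. Both differed between numbers 3 and 1 by similar amounts on the log2 scale, 0.33 ± 0.04 SE for HK2 and 0.31 ± 0.04 SE for HK1, but in number 2 HK2 was low in both libraries and HK1 only in control. GPI, which converts glucose 6-phosphate to fructose 6-phosphate, stood at 14579, 9933 and 19445 in the control libraries and 14035, 17042 and 20418 in the IL-10 libraries, again with only the control library of number 2 low.

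The phosphofructokinase genes, whose product commits sugar to glycolysis, were not graded. PFKL, the liver-type subunit, stood at 10318, 9804 and 11501 in the control libraries and 10030.3, 18542 and 11644 in the IL-10 libraries, and PFKP, the platelet-type subunit, at 8168, 7406 and 8736 in the control libraries and 8316, 12854 and 8791 in the IL-10 libraries. In both genes IL-10 replicate 2 was the highest of the 6 libraries. The log2 difference between numbers 3 and 1 was 0.19 ± 0.04 SE for PFKL and 0.09 ± 0.04 SE for PFKP, and the second missed the threshold (limma adjusted p = 0.133; it passed with equal totals, with the GC correction and in edgeR). PFKM, the muscle-type subunit, was low, at 39.1, 57.7 and 43.6 in the control libraries and 25.7, 55.2 and 41.8 in the IL-10 libraries, with its highest values in number 2. Its log2 difference between numbers 3 and 1, 0.42 ± 0.29 SE, was larger than that of PFKL and PFKP but missed the threshold (limma adjusted p = 0.393).

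Aldolase splits fructose 1,6-bisphosphate. ALDOA, the main form, stood at 23973, 17614 and 33819.7 in the control libraries and 23820.5, 32485 and 35187 in the IL-10 libraries. ALDOC (ENSG00000109107, chromosome 17, 28573115 to 28577264), the brain-type form, stood at 1193, 154 and 1764 in the control libraries and 1168, 259 and 1989 in the IL-10 libraries. Both libraries numbered 2 lay far below the rest in ALDOC: replicate 1 was 7.74-fold higher in control and 4.52-fold higher with IL-10. For ALDOA the same ratios were 1.36 and 0.73, so the 2 libraries of number 2 lay on opposite sides of number 1. Between numbers 3 and 1 the log2 differences were 0.67 ± 0.06 SE for ALDOC and 0.53 ± 0.04 SE for ALDOA. TPI1, which interconverts the products of aldolase, stood at 11496, 9479 and 12889 in the control libraries and 11771, 14219.5 and 13182 in the IL-10 libraries, a log2 difference of 0.16 ± 0.04 SE.

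PFKFB3 and PFKFB4 make and break down fructose 2,6-bisphosphate, the strongest known activator of phosphofructokinase. PFKFB4 (ENSG00000114268, chromosome 3, 48517684 to 48562015) stood at 2385, 189 and 3962 in the control libraries and 2229, 323 and 4026 in the IL-10 libraries. Replicate 3 exceeded replicate 2 by 21.0-fold in control and 12.5-fold with IL-10. PFKFB3 followed the same order within a narrower range, at 2555, 1622 and 3442 in the control libraries and 2455, 2334 and 3502 in the IL-10 libraries. Replicate 3 exceeded replicate 1 by 1.66-fold in control and 1.81-fold with IL-10 for PFKFB4 and by 1.35-fold in control and 1.43-fold with IL-10 for PFKFB3.

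All 6 genes of lower glycolysis passed the threshold as higher in replicate 3 than in replicate 1, where 6.45% of all genes did. PGK1, which makes the first ATP of the pathway, stood at 35213, 24346 and 47050.2 in the control libraries and 35225, 31896 and 49107 in the IL-10 libraries, with the order of the numbers kept in both treatments. ENO1, the main enolase, was the most abundant member, at 77849.5, 62382 and 104172 in the control libraries and 75739, 105599 and 106539 in the IL-10 libraries. GAPDH, often used as a reference gene, stood at 33169, 31297 and 39101 in the control libraries and 33492, 53673 and 42127 in the IL-10 libraries. In ENO1 and GAPDH the 2 libraries of number 2 disagreed, with control the lowest of the 6 and IL-10 at or near the top.

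ENO2 (ENSG00000111674, chromosome 12, 6913745 to 6923698), the neuronal enolase, stood at 272, 61.7 and 904 in the control libraries and 264, 54.1 and 1031 in the IL-10 libraries. It had 3 separate levels by number, and replicate 3 exceeded replicate 1 by 3.32-fold in control and 3.91-fold with IL-10 (log2 difference 1.85 ± 0.08 SE). PGAM1, a phosphoglycerate mutase, stood at 10537, 7691 and 12275 in the control libraries and 10319.9, 10759 and 12083 in the IL-10 libraries, and PKM, pyruvate kinase, at 34845, 25773 and 37909.6 in the control libraries and 34321, 43266 and 38981 in the IL-10 libraries. Their log2 differences between numbers 3 and 1 were 0.22 ± 0.04 SE and 0.15 ± 0.04 SE.

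At the end of the pathway LDHA and LDHB, the 2 subunits of lactate dehydrogenase, parted. LDHA (ENSG00000134333, chromosome 11, 18394388 to 18408425) stood at 55044, 31715 and 67017 in the control libraries and 55884, 33096 and 68218 in the IL-10 libraries. LDHB (ENSG00000111716, chromosome 12, 21635342 to 21757857) stood at 21628, 22437 and 21624 in the control libraries and 23126, 20382 and 21594 in the IL-10 libraries. LDHA was low in number 2 and high in number 3 in both treatments, while the 6 values of LDHB lay within a narrow band with the numbers mixed. Replicate 3 exceeded replicate 1 by 1.22-fold in control and 1.22-fold with IL-10 for LDHA, a log2 difference of 0.29 ± 0.04 SE. For LDHB the difference was -0.05 ± 0.04 SE, with a 95% interval of -0.12 to 0.02 and an adjusted p of 0.443 in limma. PDK1, the kinase that shuts off pyruvate dehydrogenase, had 1872, 1159.5 and 2277 in the control libraries and 1923, 892 and 2115 in the IL-10 libraries, in the same order of numbers as LDHA.

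HIF1A (ENSG00000100644, chromosome 14, 61695513 to 61748259) stood at 1235, 1099 and 1447 in the control libraries and 1276, 673 and 1396 in the IL-10 libraries, and replicate 3 exceeded replicate 1 by 1.17-fold in control and 1.09-fold with IL-10 (log2 difference 0.18 ± 0.06 SE, limma adjusted p = 0.0179). Of the 10 tested genes in this group, HIF1A included, 9 passed the threshold as higher in replicate 3 than in replicate 1 (6.45% of all genes). The full order of numbers held in 9 (7.52% of all genes). The exception to the first count was VEGFA, whose difference was positive but missed the threshold, and to the second CA9.

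NDRG1 (ENSG00000104419, chromosome 8, 133237171 to 133302022), a stress-induced gene strongly raised by low oxygen, stood at 661, 176 and 3358 in the control libraries and 639, 299 and 3569 in the IL-10 libraries. Its libraries numbered 3 stood 5.08-fold in control and 5.58-fold with IL-10 above those numbered 1. The fitted log2 difference of 2.41 ± 0.06 SE was the largest of the list, although with IL-10 alone the ratio of the near-floor gene CA9 was higher, at 9.18. In NDRG1 the treatments lay close together within numbers 1 and 3. ADM, which encodes the vasodilator adrenomedullin, stood at 226, 34.8 and 643 in the control libraries and 197, 35.3 and 634 in the IL-10 libraries, with ratios of 3 to 1 of 2.84-fold in control and 3.22-fold with IL-10. CA9, a carbonic anhydrase of the cell surface, was near the floor, at 8.38, 2.98 and 18.7 in the control libraries and 3.21, 3.53 and 29.4 in the IL-10 libraries. Its values were highest in number 3 in both treatments, with a log2 difference of 1.96 ± 0.48 SE, but at such levels the value within a number differed between treatments too.

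BNIP3 and BNIP3L, receptors that direct mitochondria to autophagy, moved alike. BNIP3 stood at 2025, 309 and 3577 in the control libraries and 2019, 279 and 3535 in the IL-10 libraries and BNIP3L at 2306, 601 and 3342 in the control libraries and 2317, 401 and 3485 in the IL-10 libraries. Replicate 1 exceeded replicate 2 in BNIP3 by 6.55-fold in control and 7.25-fold with IL-10, and in BNIP3L by 3.84-fold and 5.78-fold. P4HA1, a subunit of collagen prolyl 4-hydroxylase, stood at 7425, 2806 and 11759.9 in the control libraries and 7072, 2098 and 11776 in the IL-10 libraries. KDM3A, an oxygen-dependent histone demethylase, stood at 3154, 1520.5 and 4339 in the control libraries and 3161, 1047 and 4351 in the IL-10 libraries, and ANKRD37, a small ankyrin-repeat gene, at 139.7, 63.6 and 223 in the control libraries and 107, 81.1 and 242 in the IL-10 libraries. In all of these number 2 was lowest and number 3 highest in both treatments.

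VEGFA, the growth factor for blood vessels, had the smallest difference between numbers 3 and 1 in this group, at 3227, 2381 and 3354 in the control libraries and 3190.2, 2942 and 3358 in the IL-10 libraries. Its numbers followed the same order, but replicate 3 exceeded replicate 1 by only 1.04-fold in control and 1.05-fold with IL-10, a log2 difference of 0.06 ± 0.05 SE that missed the threshold (limma adjusted p = 0.424, 95% interval -0.03 to 0.16).

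IL-10 was also compared with control within numbers 1 and 3 only, where the libraries of a number were close. Number 2 was left out with its wide gap between treatments already known. The members' median log2 ratio was -0.03 in number 1, 0.37 in number 2 and 0.02 in number 3. Small fold changes in this fit therefore follow in part from that choice. In these 4 libraries, with the replicate number as a block, limma called 0.0542% of 20308 genes (11) and none of the 32 members. For LDHA the log2 fold change of IL-10 over control in that fit was 0.02 (95% interval -0.04 to 0.09), for NDRG1 0.02 (95% interval -0.09 to 0.13), for BNIP3 -0.01 (95% interval -0.11 to 0.08) and for PFKFB4 -0.04 (95% interval -0.13 to 0.06). For HIF1A it was -0.0022 (95% interval -0.12 to 0.11). The widest intervals were those of the low genes, such as CA9 with -0.26 (95% interval -1.19 to 0.66) and PFKM with -0.33 (95% interval -0.87 to 0.22). This fit has 1 residual degree of freedom. It uses the same libraries and terms as the comparison of numbers 3 and 1, in which limma took each gene's spread wholly from the trend over all genes. The narrow intervals therefore do not rest on each gene's own spread.

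With all 6 libraries and no replicate block the intervals were far wider. The 4 members of smallest p were GAPDH, PFKP, PFKL and PKM, whose log2 fold changes were 0.30 (95% interval -0.19 to 0.79), 0.28 (95% interval -0.18 to 0.73), 0.30 (95% interval -0.23 to 0.83) and 0.26 (95% interval -0.21 to 0.72) (limma adjusted p = 0.982 for each). GAPDH stood at 34522 ± 4074 in the control group and 43097 ± 10126 in the IL-10 group (SD, n = 3) and PFKL at 10541 ± 870.2 in the control group and 13405 ± 4521 in the IL-10 group (SD, n = 3). In each of the 4 genes the value of IL-10 replicate 2 exceeded that of every other library. For NDRG1 the fold change was 0.27 (95% interval -2.21 to 2.75) and for LDHA 0.04 (95% interval -0.74 to 0.81). The spread between numbers enters these fits, which have no replicate block, so their width is not due to the added libraries alone. With the block on all 6 libraries the unadjusted limma p of NDRG1 was 0.183, against 0.813 without it. For GAPDH it was 0.174 against 0.197, and 0 members were called. By role, 8 of the 9 genes of upper glycolysis were positive, with a median of 0.26, and 3 of the 10 of HIF1A and its targets, with a median of -0.09, where 11407 of all 21946 genes were positive. The upper glycolysis median was -0.02 in number 1, 0.74 in number 2 and 0.02 in number 3, and that of HIF1A and its targets was -0.03, -0.07 and 0.00. The difference between the roles was not tested.

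Between the 2 libraries numbered 2 the members split by the GC content of their transcripts. IL-10 and control differed by 1.5-fold or more in 13 of the 32 members in number 2 (45% of all genes), in 2 in number 1 (22.3%) and in 1 in number 3 (21.7%). In number 1 these were PFKM and CA9 and in number 3 CA9, both of low value. All genes tested include many of low value, so their shares are not matched to the members for level. In number 2 the 19 members with a GC content of 53% or more had a median log2 ratio of 0.75, with 18 positive, and the 10 under 48% had -0.26, with 3 positive. PFKL, at 63.5% GC, had 0.92, and HIF1A, at 39.2%, had -0.71. Across 30 members the Spearman rho of this ratio with GC was 0.786, against 0.842 over 11575 genes; genes are not replicates, and all points share the same 2 libraries. The difference between numbers 3 and 1 had a rho with GC of -0.03 in control and 0.10 with IL-10 over the same 30 members.

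**Figure D3:**
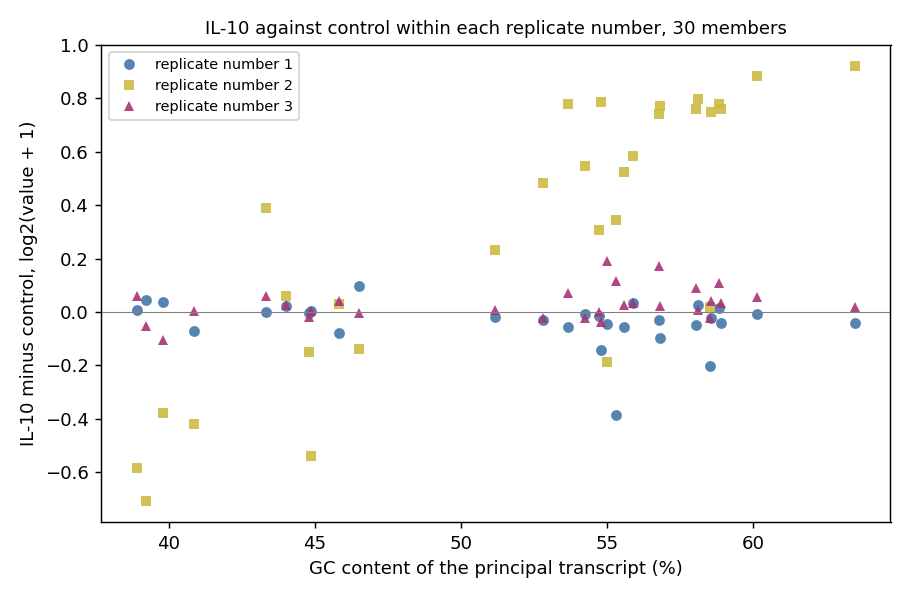
Log2(value + 1) of IL-10 minus control within each replicate number, against the GC content of the gene's principal transcript, for 30 members with a mean value of at least 50. Points of numbers 1 and 3 lie near 0 at every GC content, apart from ANKRD37 in number 1, while those of number 2 run from negative values in low-GC genes such as HIF1A to 0.92 in PFKL.

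Isozymes of 1 step were compared per length, as normalised reads per kb of the principal transcript, with the mean ± SD over the 3 control libraries. ENO1 stood at 34741 ± 9009.9 and ENO2 at 146 ± 155. ALDOA stood at 15680.3 ± 5094 and ALDOC at 523 ± 412. In both steps the abundant form exceeded the minor one in every library, and the minor one spread more in relative terms: replicate 3 exceeded replicate 2 by 14.7-fold for ENO2 and 1.67-fold for ENO1 in control, and by 11.4-fold for ALDOC and 1.92-fold for ALDOA. LDHA, at 21216 ± 7431, exceeded LDHB, at 14237 ± 305, in every library except control replicate 2, and in number 2 both subunits were at similar levels.

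HK1 and HK2 were close, at 1451 ± 370.3 and 1703 ± 575. PFKL, at 3619.8 ± 299, exceeded PFKP, at 3053 ± 252, in every library, and PFKM was at 14.5 ± 3.0. SLC2A1 and SLC2A3 stood at 645 ± 220.1 and 882 ± 653, and their order depended on the number: SLC2A3 was the higher in numbers 1 and 3 and SLC2A1 in number 2. BNIP3 and BNIP3L stood at 689 ± 571 and 577 ± 383, and PFKFB3 and PFKFB4 at 566 ± 203 and 608 ± 528. The means of the hexokinase, glucose transporter, BNIP3 and PFKFB pairs differed by less than the larger SD over the 3 control libraries. With IL-10 LDHA stood at 21688 ± 7375 and LDHB at 14109.7 ± 894.

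**Figure D4:**
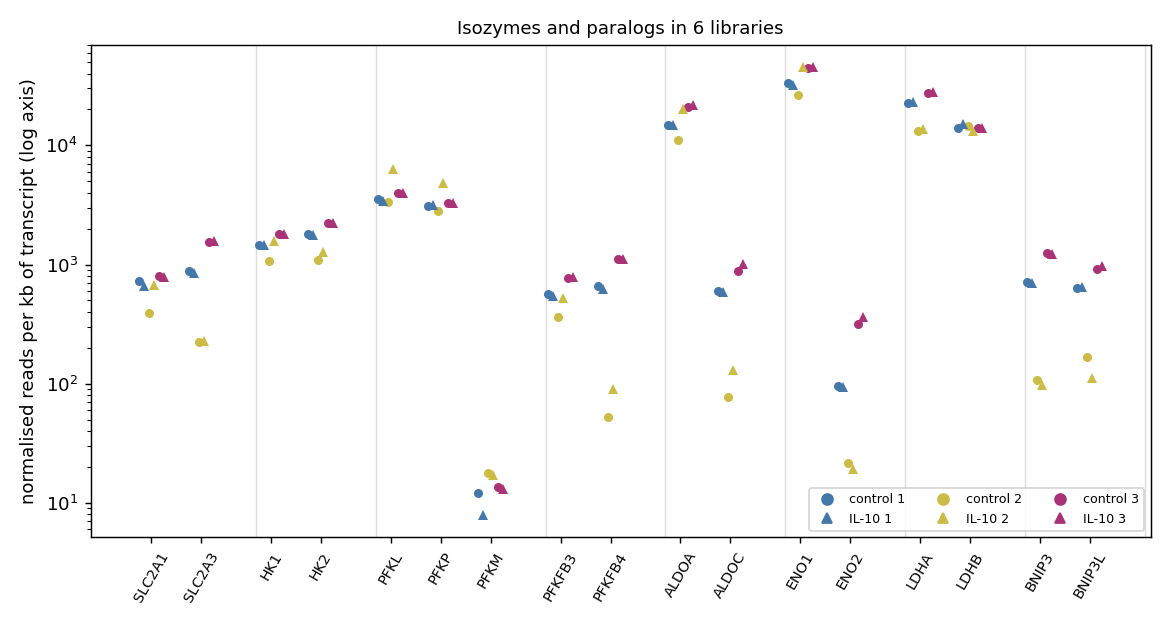
Normalised reads per kb of transcript (log axis) for isozymes and paralogs in the 6 libraries; circles are control, triangles IL-10 and colours the replicate number. ENO2, ALDOC, PFKFB4, SLC2A3, BNIP3 and BNIP3L spread widely by number, whereas LDHB stays within one narrow band.

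Other genes reported as HIF targets, from a list of 30 that holds none of the members, were compared in the same way. This list was also chosen with earlier results of these data known, so it is not an independent check. All 30 were tested. Of these, 22 passed as higher in replicate 3 than in replicate 1 (6.45% of all genes), 0 as lower (8.36%) and 8 did not pass. The median log2 difference was 0.43. Both libraries numbered 2 were the lowest in 23 of them (17.5% of all genes) and the full order of numbers held in 20 (7.52%). HILPDA, which coats lipid droplets, stood at 650.3, 264 and 1817 in the control libraries and 708, 334 and 1779 in the IL-10 libraries. DDIT4, an inhibitor of mTORC1, stood at 1254, 206 and 2828 in the control libraries and 1258, 334 and 2794 in the IL-10 libraries, and WSB1, part of a ubiquitin ligase, at 5300.02, 3622 and 7974 in the control libraries and 5235, 2938 and 7912 in the IL-10 libraries. With IL-10 against control 0 of the 30 passed in limma, and their median was 0.06.

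Of 11 tested genes of the oxygen-sensing machinery, 2 were higher in replicate 3 than in replicate 1, where 6.45% of all genes were, and 9 did not pass. Their median log2 difference was 0.02, and its distance from that of the members was not tested. Those that passed were EGLN1, the main HIF prolyl hydroxylase and itself a known HIF target, at 3355, 2084 and 4085 in the control libraries and 3402, 2179 and 3923 in the IL-10 libraries, and CITED2, which competes with HIF for its coactivator, at 3165, 2929 and 3495 in the control libraries and 3020.3, 4264 and 3460.1 in the IL-10 libraries. ARNT, the partner of HIF1A, stood at 1021, 879 and 1059 in the control libraries and 1006, 931 and 1170.1 in the IL-10 libraries, and its log2 difference of 0.14 ± 0.06 SE missed the threshold (limma adjusted p = 0.136).

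Around the pathway, counts are of genes past the threshold between numbers 3 and 1, where 6.45% of all genes were higher and 8.36% lower. Of 15 genes for lactate export and pyruvate entry 2 were higher in replicate 3 and 4 were lower. SLC16A3 (MCT4), a lactate exporter, stood at 4754, 1045 and 6435 in the control libraries and 4328, 1752 and 6672 in the IL-10 libraries, in the order of LDHA, with a log2 difference of 0.53 ± 0.04 SE. PDK3, another pyruvate dehydrogenase kinase, was the second to pass, with 0.44 ± 0.09 SE. DLAT, a subunit of pyruvate dehydrogenase, was lower, at 3221, 3609.8 and 2526 in the control libraries and 3215, 3296 and 2537 in the IL-10 libraries, a difference of -0.35 ± 0.05 SE. Also lower were SLC16A1, another lactate transporter (-0.18 ± 0.05 SE), BSG (-0.10 ± 0.04 SE) and PDHB (-0.17 ± 0.05 SE). In the pentose phosphate pathway, which drains glucose 6-phosphate, 0 of 7 were higher and 3 were lower, with PGD at 7054, 7349.8 and 6279 in the control libraries and 7209, 10880.3 and 6176 in the IL-10 libraries. Of the 5 tested genes of gluconeogenesis 0 were higher and 2 lower, and of 11 other isozymes of glycolytic steps 1 was higher (ENO3, 0.36 ± 0.09 SE) and 1 lower (SLC2A6, -0.64 ± 0.15 SE). These lists are short, and the distance of their counts from the shares of all genes was not tested. No gene of these lists passed with IL-10.

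Myeloid markers also differed between the numbers. MPO, myeloperoxidase, stood at 151854, 89132 and 66945 in the control libraries and 139394, 160649 and 67839 in the IL-10 libraries, and ELANE, neutrophil elastase, at 139.7, 8.95 and 15.1 in the control libraries and 159, 4.70 and 16.1 in the IL-10 libraries. Both were higher in number 1 than in number 3 in both treatments. Of the 10 myeloid markers 5 were lower in replicate 3 than in replicate 1 in limma (MPO, ELANE, AZU1, KIT and CD33), where 8.36% of all genes were. The 2 higher, where 6.45% of all genes were, were PTPRC, with a log2 difference of 0.29, and CD34, with 0.13. RUNX1T1, SPI1 and CEBPA did not pass. The 10, of which MPO is the most abundant in every library, summed to 237925, 159188 and 140800 in control replicates 1, 2 and 3 and to 223766, 226707 and 141350 in the IL-10 replicates. Their part in the differences of the glycolytic and hypoxia genes was not tested, nor was that of the liver transcripts of number 2.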

How the data were processed

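Bulk RNA-seq of 6 Kasumi-1 libraries (3 per group; Illumina TruSeq RNA kit, Trizol RNA per the labels) was analysed. The deposited values, named FPKM by the authors, were signal values in which every library's reads share a single scaling factor: dividing by the step of low values gave whole reads within 0.01 read for all values, and no transcript length enters them. Per the submitters' processing notes edgeR 3.18.1 and GRCh38 (hg38) were used; aligner and strand setting: not given in the sources used here. A log-scale test was planned because the values had been described as normalised, and it was kept when they turned out to be scaled counts. Log2(value + 1) was fitted with limma 3.58.1 (trend) in R 4.3.3 for genes at 1 or more in at least 3 libraries. Benjamini-Hochberg adjustment ran over all genes tested, with a threshold of 0.05. Fits of edgeR 4.0.16 and DESeq2 1.42.0 on the recovered reads were alternatives.

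Groups came from the titles. Libraries sharing a replicate number deviated together from their group means over 11575 genes (r = 0.355, 0.602 and 0.727 for numbers 1, 2 and 3). Between different numbers r was -0.696 to 0.204, positive only between numbers 1 and 3 (0.204 and 0.166). The numbers therefore pair the libraries, number 1 least closely. What a number stands for is not given. Coordinates, transcript lengths and GC content are from GENCODE 29 (GRCh38), matched for 27052 of 27576 IDs. Values per library were given for the up to 3 members of highest mean in each role, the 4 of smallest p with IL-10, the 8 of largest difference between numbers 3 and 1, isozymes of 1 step and the remaining members, and for up to 3 genes of smallest p in each further list. The members and all gene lists were chosen with earlier results of these data known. Scripts were tested on simulated data. Depth limits precision only for the lowest genes, such as CA9 and PFKM.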

Additional observations from a re-analysis of the deposited data

How the results depend on the processing

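With IL-10 against control, 0 genes were called under every alternative run except edgeR with the replicate block (1 gene) and numbers 1 and 3 alone with the block (11 genes); leaving out 1 library each gave 0 to 0. No member was called under any of them. The replicate block alone, on all 6 libraries, left 0 calls, with 512 genes of unadjusted p under 0.05; in edgeR the block moved the count from 0 to 1. The members' median ranged from -0.17 to 0.37 when 1 library was left out, and was -0.12 in edgeR without control replicate 2, an alternative chosen after seeing the data. For replicate 3 against replicate 1, leaving out 1 library (without the covariate, also chosen after seeing the data) gave 0 to 3 genes, 0 to 1 members and medians of 0.44 to 0.47, against 3249, 28 and 0.45; fewer samples enter those fits. The F test over numbers called 153 genes and 10 members. It called 101 genes at a value minimum of 10, 3847 (27 members) with the GC and length correction, 2047 (17 members) in edgeR, and 281 to 10421 (10 to 31 members) with 1 library left out, the most without control replicate 2; each of these leaves 1 number as a single library. Beyond these counts the cause was not tested. Among 382 single-gene comparisons of 12 members, 337 kept their call, 42 lost it (all with 1 library left out of the comparison of numbers 3 and 1), 3 gained it (PFKP) and 0 reversed; 48 uncalled values changed sign, all for IL-10. Equal totals moved the median of all genes for IL-10 from 0.02 to -0.08.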
